A study of Mus musculus with 2 samples.

Results

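The genes described are the sugar and monocarboxylate transporters of the Slc2, Slc5 and Slc16 families on a mouse expression array. They were chosen by name alone: every non-control probe whose gene name was Slc2a, Slc5a or Slc16a followed by a number. The rule gave 63 probes for 37 of the 37008 gene names on the array, 12 of the Slc2 family, 11 of Slc5 and 14 of Slc16. Slc5a4a and Slc5a4b, which end in a letter, do not match it. The name of the set holds for most members, but the Slc5 family also includes carriers of iodide, vitamins and choline, and the Slc16 family carriers of amino acids, creatine and carnitine.

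The study hybridised 1 Agilent array with total RNA from neurospheres and 1 with total RNA from the ventricular and subventricular zones (VZ/SVZ) of the brain. Both samples came from C57BL/6 mice aged 6 months, were heterozygous for Ecrg4 and were labelled beta-gal positive. The labels give one culture medium for both, DMEM/F12 with bFGF, EGF and heparin. Neurospheres are floating clusters grown from neural stem and progenitor cells, and the VZ/SVZ lines the lateral ventricles and holds such cells in the adult brain. Both samples carry the Ecrg4 allele, so no wild-type group is compared. The sources used here do not say how beta-gal positive cells were selected, how long they were cultured or how many animals were pooled.

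Slc2 proteins let hexoses cross a membrane down their gradient, whereas most Slc5 proteins draw sugars, inositol or monocarboxylates into the cell with sodium. The classical Slc16 proteins move lactate, pyruvate and ketone bodies together with protons, and need basigin or embigin to reach the cell surface. In the brain, glucose enters through Slc2a1 in endothelium and glia and through Slc2a3 in neurons, and lactate passes between cells by way of Slc16a1, Slc16a3 and Slc16a7.

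Values are background-subtracted processed signals, and differences are VZ/SVZ minus neurosphere on the log2 scale after each array was scaled to its own 75th percentile, a signal of 99.4 (neurosphere) or 106.1 (VZ/SVZ). The error beside a difference is the scanner software's technical error, and it holds no spread between animals. With 1 array per group nothing could be tested, so 2-fold serves as a size to describe by, not as a threshold of significance. A probe is called dim where its signal was not well above background, and a gene dim on 1 array is given as "at least" a fold. The lowest signals well above background were 5.20 in the neurosphere and 5.93 in VZ/SVZ, and 34619 (61.2%) and 37477 (66.2%) of 56599 probes reached that status. In bulk RNA, fewer cells of a type and less RNA per cell cannot be told apart.

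Of the 37 transporters, 32 were well above background on at least 1 array and 25 on both. Of these 32, 7 exceeded 2-fold toward VZ/SVZ (21.9%, against 18.7% of all 26434 genes measured) and 7 toward the neurosphere (21.9%, against 11.1%), and 18 did not reach 2-fold, 3 of them (Slc5a6, Slc5a7 and Slc16a12) known by a lower bound alone. The median difference was 0.07, beside 0.04 over all genes. The neurosphere had the higher signals of the urate carrier Slc2a9, the carnitine carrier Slc16a9 and the inositol carrier Slc5a3. VZ/SVZ had those of the class III hexose transporters Slc2a6 and Slc2a10, the lactate exporter Slc16a3 and the sugar carrier Slc5a9. Many signals were weak: 19 members, 9 of them among the 14 past 2-fold, had signals under 50 on both arrays. Normexp background correction with an offset of 50 shrinks weak signals. Under it, 0 members stayed past 2-fold toward VZ/SVZ and 2, among them Slc2a9, toward the neurosphere. Of all genes, 5.56% and 4.80% lay past 2-fold in those directions with normexp, so the loss was not particular to these transporters.

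**Figure D1:**
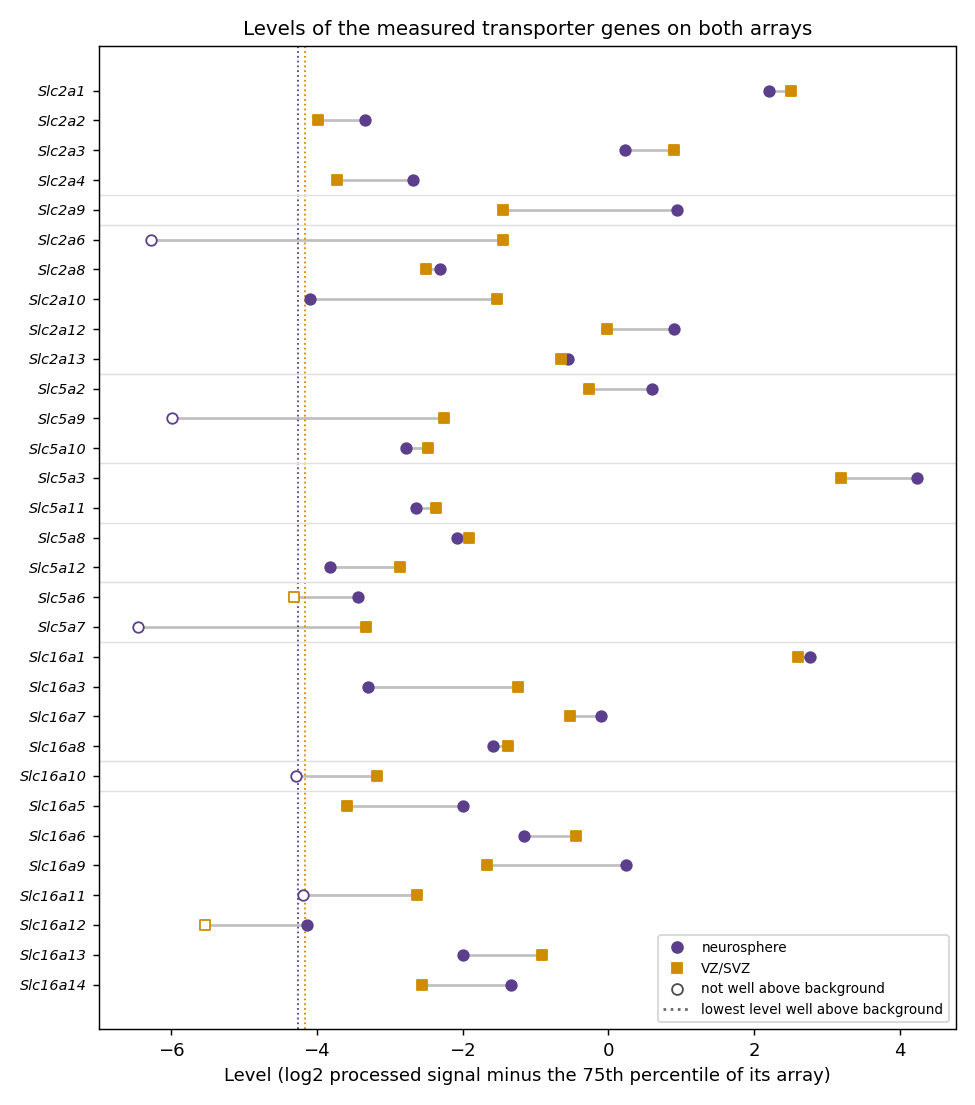
Scaled log2 level of each measured transporter described here on the neurosphere and VZ/SVZ arrays, grouped by family, with dim signals as open symbols. Levels on the 2 arrays may be compared within a gene, not between genes, whose probes differ; Slc2a9 and Slc16a9 lie higher in the neurosphere and Slc2a6, Slc2a10 and Slc16a3 higher in VZ/SVZ.

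Of the main brain glucose transporters, Slc2a1 lay within 2-fold and Slc2a3 differed in size between its probes. Slc2a1, the main carrier of glucose across the blood-brain barrier, had a signal of 460.5 in the neurosphere and 603.6 in VZ/SVZ, a difference of 0.30 ± 0.20 (1.23-fold). Its array probe lies at chr4:118809864-118809923 (mm9, plus strand). Slc2a3, the high-affinity neuronal glucose transporter, read 116.1 in the neurosphere and 197.7 in VZ/SVZ on its brighter probe, 0.67 ± 0.20 or 1.60-fold. A second Slc2a3 probe gave 7.28 and 96.3, 3.63 ± 0.31 or 12.4-fold. Both Slc2a3 probes were higher in VZ/SVZ, but the size of the difference depends on the probe. The second spans an exon junction over 834 bases of genome (chr6:122681586-122682419, mm9, minus strand) and is shown because it sets that size.
Slc2a3 junction probe: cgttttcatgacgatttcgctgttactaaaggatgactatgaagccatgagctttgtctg

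The remaining class I hexose transporters were weakly detected. Slc2a4, the insulin-responsive transporter of muscle and fat, had signals of 15.5 in the neurosphere and 8.05 in VZ/SVZ, -1.04 ± 0.33 or 2.06-fold higher in the neurosphere, with a second probe dim on both. Slc2a2, the low-affinity transporter of liver and pancreatic beta cells, read 9.86 and 6.72, a difference of -0.65 ± 0.36. Both signals lie close to the lowest that count as above background.

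Slc2a9, a class II transporter that carries urate, had the difference furthest toward the neurosphere on the probe used for each gene. Its brighter probe read 190.7 in the neurosphere and 39.1 in VZ/SVZ, -2.38 ± 0.21 or 5.20-fold. Another probe read 88.8 and 17.7, -2.42 ± 0.23 or 5.34-fold, and the last was dim on both arrays at 1.26 and 1.39. The bright probes do not overlap, one spans a 12387-base stretch of genome across an intron (chr5:38831985-38844371, mm9, minus strand) and the other lies in a single block (chr5:38808475-38808534, same strand), and they are shown because their differences match closely.
Slc2a9 junction probe: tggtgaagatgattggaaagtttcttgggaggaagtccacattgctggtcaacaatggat
Slc2a9 single-block probe: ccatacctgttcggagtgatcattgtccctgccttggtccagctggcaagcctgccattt

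The fructose transporter Slc2a5 and Slc2a7, the other class II members, were dim on both arrays. The 5 members dim on both, these and Slc5a1, Slc5a5 and Slc16a4, had signals from 1.14 to 3.73 in the neurosphere and from 1.31 to 3.05 in VZ/SVZ. They are the intestinal sodium-glucose transporter (Slc5a1), the iodide transporter (Slc5a5), Slc16a4 and the class II pair.

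Of the 5 class III transporters, 2 were past 2-fold, both higher in VZ/SVZ. Slc2a6, a hexose transporter of internal membranes, was dim in the neurosphere at 1.28 and read 38.9 in VZ/SVZ, at least 7.02-fold higher; its other 2 probes were dim on both arrays. Slc2a10, whose loss causes arterial tortuosity syndrome in humans, read 5.82 in the neurosphere and 36.9 in VZ/SVZ, 2.57 ± 0.34 or 5.94-fold. The neurosphere signal of Slc2a10 lies just over the lowest called above background. Slc2a12 went the other way by just under 2-fold, 186.7 and 104.6 (-0.93 ± 0.20), with its weaker probe at 14.3 and 9.80 (-0.63 ± 0.29). Slc2a8, an intracellular glucose transporter, differed by -0.19, and Slc2a13, a proton-coupled inositol transporter, read 67.7 and 67.6 (-0.10 ± 0.21). A second Slc2a13 probe was dim in the neurosphere at 1.08 and read 10.4 in VZ/SVZ. Normexp brought Slc2a10 to 0.57, Slc2a6 to 0.57 and Slc2a9 to -1.43. Each direction was kept, though the bound of Slc2a6 could not have reversed.

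**Figure D2:**
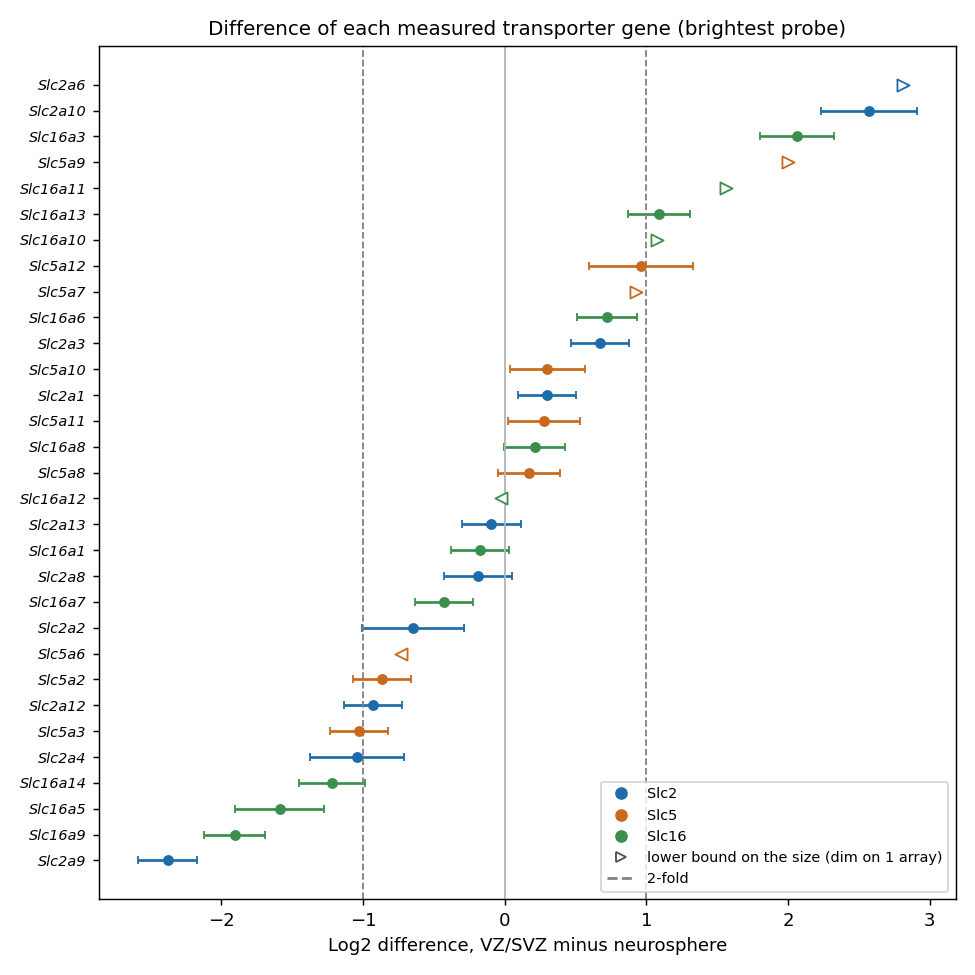
Log2 difference, VZ/SVZ minus neurosphere, of the measured transporters described here, with the scanner software's technical error as bars and open triangles for bounds where 1 array was dim. Dashed lines mark 2-fold, and members run from Slc2a9 at -2.38 to Slc2a6 at a bound of 2.81.

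In the sodium-coupled family, 1 of 9 measured members lay past 2-fold on each side, an inositol carrier toward the neurosphere and a sugar carrier toward VZ/SVZ. Slc5a3, which takes up inositol as an osmolyte, read 1868 in the neurosphere and 976.0 in VZ/SVZ, -1.03 ± 0.20 or 2.04-fold, and its other probe 859.0 and 515.1, -0.83 ± 0.20 or 1.78-fold. It sits at the 2-fold line and one probe lies inside it. Slc5a11, the second inositol carrier of the family, read 15.9 and 20.6 (0.28), with another probe dim on both arrays at 3.37 and 5.90. Among inositol and osmolyte genes, 3 of 6 measured exceeded 2-fold toward VZ/SVZ and 1 toward the neurosphere (median 0.37). The taurine transporter Slc6a6 read 186.7 and 3090 (3.95 ± 0.20), although another of its probes gave 0.94. Isyna1, which makes inositol phosphate from glucose 6-phosphate, was higher in VZ/SVZ at 20.7 and 210.6 (3.25 ± 0.22), and Impa2, an inositol monophosphatase, higher in the neurosphere at 186.0 and 65.8 (-1.59 ± 0.21).

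The sodium-coupled hexose carriers were mostly weak. Slc5a9, a mannose and fructose carrier of kidney and intestine, was dim in the neurosphere at 1.56 and read 22.2 in VZ/SVZ, at least 3.99-fold higher, with a second probe dim on both. Slc5a10, its renal relative, read 14.5 and 19.1 (0.30). Slc5a2, the renal glucose reabsorption transporter, had probes on opposite sides: the brighter read 151.4 and 88.6 (-0.87 ± 0.21) and the weaker 8.95 and 25.8 (1.43 ± 0.28, 2.70-fold higher in VZ/SVZ). No single direction can be given for Slc5a2. The weaker probe crosses an intron (span 806 bases, chr7:135412649-135413454, mm9, plus strand) and is shown for that disagreement.
Slc5a2 junction probe: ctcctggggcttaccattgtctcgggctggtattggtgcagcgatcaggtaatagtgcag

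The remaining Slc5 carriers did not reach 2-fold as measured or as a bound. Slc5a12, a low-affinity sodium-coupled lactate carrier, read 7.04 and 14.6 (0.96 ± 0.37). Slc5a7, which brings choline into cholinergic neurons, was dim in the neurosphere at 1.13 and read 10.5 in VZ/SVZ. That is at least 1.90-fold higher, a bound that leaves its full size unknown. A second Slc5a7 probe was dim on both arrays at 2.78 and 5.53. The sodium-coupled monocarboxylate carrier Slc5a8 read 23.6 and 28.4 (0.17). The multivitamin carrier Slc5a6 read 9.23 and was dim in VZ/SVZ at 5.36, at least 1.66-fold lower there.

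The proton-coupled lactate carriers included 1 past 2-fold among 4. Slc16a1, the widely expressed lactate and ketone carrier, read 679.9 in the neurosphere and 643.8 in VZ/SVZ, -0.17 ± 0.20 (quantile normalization gave 0.07). Slc16a3, the low-affinity carrier by which glycolytic cells release lactate, read 10.1 and 45.1, 2.06 ± 0.26 or 4.18-fold higher in VZ/SVZ; normexp gave 0.53, and a second probe was dim on both arrays. Slc16a8, the carrier of retinal pigment epithelium, read 33.2 and 41.1 (0.21). Slc16a7, the high-affinity neuronal lactate and pyruvate carrier, differed among its 6 probes. The brightest read 93.0 and 73.7 (-0.43 ± 0.21), and the others bright on both read 77.4 and 41.9 (-0.98 ± 0.21) and 10.5 and 8.13 (-0.46 ± 0.36). Another read 18.7 and was dim in VZ/SVZ at 6.07, at least 3.29-fold lower, a bound equal to its measured difference of -1.72 ± 0.37. A further probe was dim in the neurosphere at 5.15 and read 15.3 in VZ/SVZ, at least 2.76-fold higher, and the last was dim on both. The Slc16a7 probes do not give one size or direction.

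**Figure D3:**
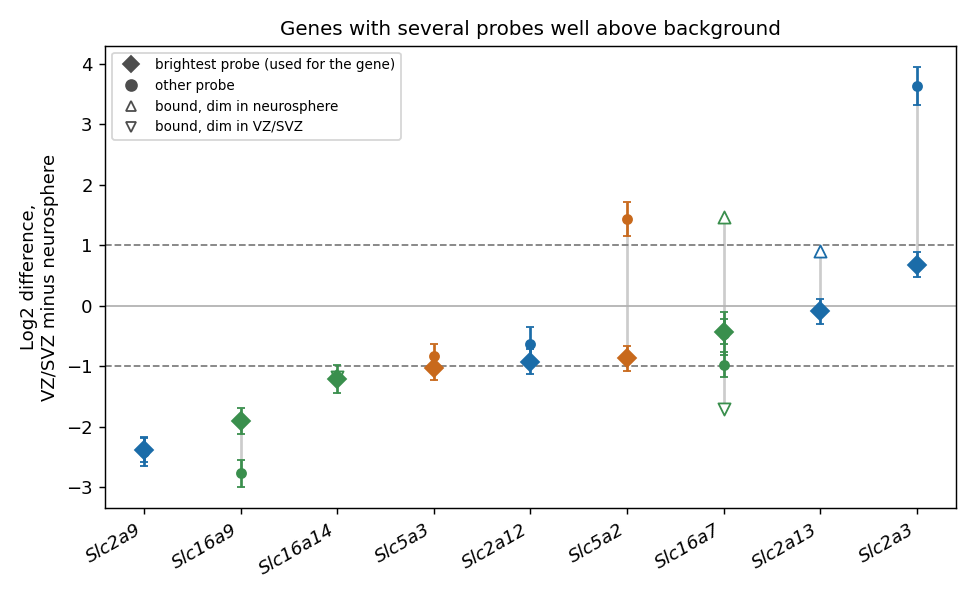
Log2 difference of each bright probe, VZ/SVZ minus neurosphere, for the transporters with several bright probes, with technical errors and open triangles for bounds. The 2 bright probes of Slc2a9 lie together at -2.38 and -2.42, whereas those of Slc2a3, Slc5a2 and Slc16a7 lie apart.

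The accessory proteins of these carriers differed between themselves. Basigin (Bsg), which escorts Slc16a1 and Slc16a3 to the cell surface, read 2005 in the neurosphere and 1880 in VZ/SVZ, -0.19 ± 0.20. Embigin (Emb), the partner preferred by Slc16a7, read 41.7 and 257.8, 2.53 ± 0.21 or 5.79-fold higher in VZ/SVZ. Of 13 hypoxia-responsive genes, 5 exceeded 2-fold toward VZ/SVZ and 2 toward the neurosphere (median 0.41). They ran from the stress-response gene Ndrg1 at 3.89 and the angiogenic factor Vegfa at 2.67 to Pfkfb4 at -1.37 and Pfkfb3 at -2.28, the last a kinase that drives glycolysis. Of 17 glycolytic enzymes, 1 exceeded 2-fold toward VZ/SVZ (Eno2, the neuronal enolase, 1.16) and 2 toward the neurosphere (Aldoc, the brain aldolase, -1.91, and Pfkm, a phosphofructokinase, -1.08), with a median of -0.23.

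Promoters are shown for Slc16a3 and Slc16a9, each over 3-fold apart in opposite directions, since Slc16a3 is a known hypoxia-responsive gene. The windows are the 250 bases before the RefSeq start (GRCm38.p6, both on the plus strand), at chr11:120948817-120949066 for Slc16a3 and chr10:70245026-70245275 for Slc16a9. Capitals mark ACGTG and GCGTG, the core letters bound by hypoxia-inducible factors, searched on both strands.
Slc16a3 promoter: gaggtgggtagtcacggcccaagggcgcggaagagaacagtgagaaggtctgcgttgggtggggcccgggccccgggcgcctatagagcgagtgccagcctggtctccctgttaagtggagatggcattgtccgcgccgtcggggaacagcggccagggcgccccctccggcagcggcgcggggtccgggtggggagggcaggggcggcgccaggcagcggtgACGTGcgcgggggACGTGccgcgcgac
Slc16a9 promoter: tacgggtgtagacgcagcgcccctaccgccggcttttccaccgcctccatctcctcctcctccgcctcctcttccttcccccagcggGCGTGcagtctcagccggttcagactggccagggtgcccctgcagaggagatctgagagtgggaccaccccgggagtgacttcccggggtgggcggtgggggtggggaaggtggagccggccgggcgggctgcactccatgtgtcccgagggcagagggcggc
Slc16a3 holds ACGTG at 27 and at 14 bases before the start, and Slc16a9 holds GCGTG once, at 163 bases. Either motif occurs in 38.6% of 27025 promoters of this length and in 13 of the 27 members with an entry (48.1%). ACGTG alone occurs in 16.6% of promoters and in 5 of the 27 members: Slc16a3, Slc2a1, Slc16a1, Slc16a12 and Slc5a1. Of these, Slc16a3 alone was past 2-fold. Slc2a1 and Slc16a1 lay within 2-fold, Slc16a12 did not reach it as a bound, and Slc5a1 was dim on both arrays. The longer CACGTG, which contains ACGTG on both strands, occurs in 6.05% and in 3 of 27. The windows of Slc2a9 and Slc2a10 hold neither core, and matches are letters, not shown binding sites.

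Slc16a10, which carries aromatic amino acids, was dim in the neurosphere at 5.09 and read 11.7 in VZ/SVZ, at least 2.11-fold higher, on 1 of 3 probes, the others being dim on both arrays. The less studied Slc16 carriers included 3 past 2-fold toward the neurosphere and 2 toward VZ/SVZ, of 7 measured. Slc16a9, a carnitine carrier, read 117.6 in the neurosphere and 33.5 in VZ/SVZ on one probe (-1.91 ± 0.21, 3.75-fold) and 129.2 and 20.2 on the other (-2.78 ± 0.23, 6.84-fold), which is beyond either bright probe of Slc2a9. Both Slc16a9 probes put it higher in the neurosphere; the first gave -0.999 with normexp. Slc16a5 read 25.0 and 8.88, -1.59 ± 0.31 or 3.01-fold, on 1 of 3 probes, the others being dim on both arrays (1.04 and 1.19, 5.07 and 5.65). Slc16a14 read 39.4 and 18.1, -1.22 ± 0.23 or 2.33-fold, with a second probe at 12.6 and, dim, 3.61 (at least 2.26-fold). In VZ/SVZ, Slc16a11 was higher by at least 2.96-fold, dim at 5.45 in the neurosphere and 17.2 in VZ/SVZ. That bound for Slc16a11 equals its measured difference of 1.57 ± 0.37. Slc16a13 read 25.0 and 56.6, 1.09 ± 0.22 or 2.12-fold higher in VZ/SVZ. The last pair are neighbours on chromosome 11, with probes at 70029833-70029892 (plus strand) for Slc16a11 and 70030487-70030546 (minus strand) for Slc16a13 in mm9. Slc16a6, which exports ketone bodies, read 44.4 and 78.2 (0.72 ± 0.21), and the creatine carrier Slc16a12 read 5.64 and was dim in VZ/SVZ at 2.29.

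The enzymes that use these substrates were read from lists. Of 5 ketone body genes, 3 exceeded 2-fold toward the neurosphere and 0 toward VZ/SVZ (median -1.003), among them Oxct1, which commits ketone bodies to oxidation, at 3657 and 1948 (-1.003 ± 0.20). Of 10 genes of pyruvate entry and oxidation, 3 lay past 2-fold toward VZ/SVZ and 1 toward the neurosphere (median -0.55). Pdk4 and Pdk2, kinases that inhibit pyruvate dehydrogenase, were higher in VZ/SVZ (3.05 ± 0.27 and 1.94 ± 0.21), as was pyruvate carboxylase (Pcx, at least 2.03-fold). Mpc1, a subunit of the mitochondrial pyruvate carrier, was higher in the neurosphere (-1.77 ± 0.20), although another of its probes gave -0.61. Of 6 fructose and pentose enzymes measured, 1 was past 2-fold: Sord, which makes fructose from sorbitol, at 183.7 and 27.5 (-2.83 ± 0.22, 7.12-fold higher in the neurosphere). The 8 genes that govern glucose transporter trafficking had a median of -0.29. Among them, Txnip, which promotes removal of glucose transporters from the surface, was higher in VZ/SVZ (1.41 ± 0.21), although another of its probes gave 0.48. Tbc1d4, which holds Slc2a4 inside the cell, was higher in the neurosphere (-1.01 ± 0.28).

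**Figure D4:**
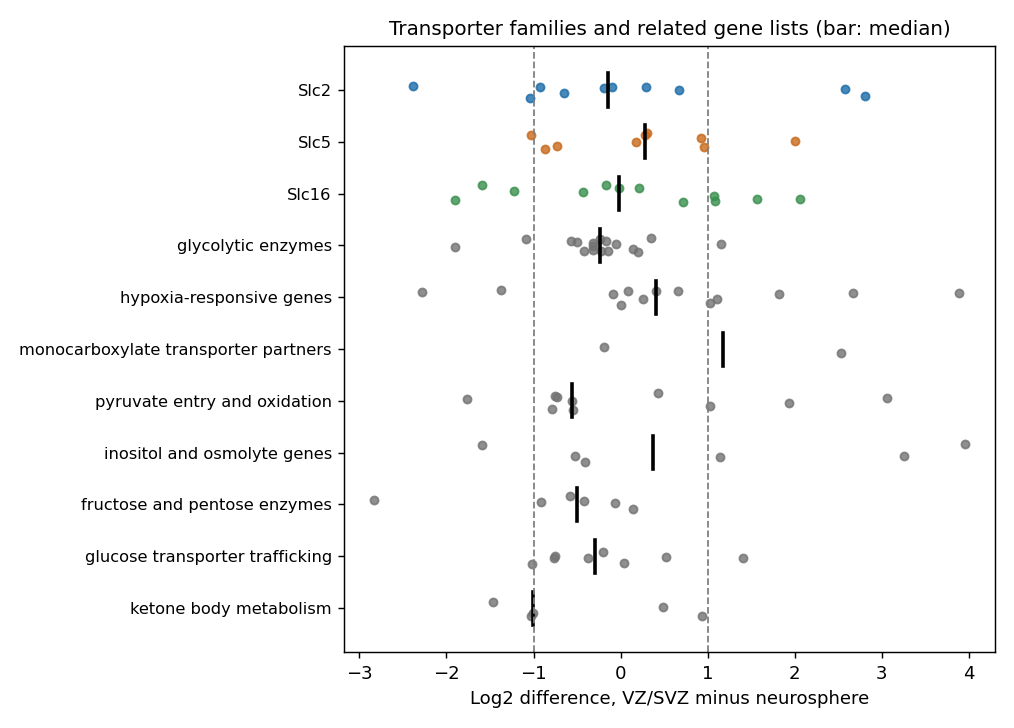
Log2 difference, VZ/SVZ minus neurosphere, of the measured genes described here in the 3 transporter families and of the lists read beside them, with a bar at the median over all measured genes; bounds are plotted as points. The medians run from -1.003 for ketone body genes to 0.41 for hypoxia-responsive genes among the metabolic lists of more than 2 genes.

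By family, medians were -0.14 for the 10 measured Slc2 genes, 0.28 for the 9 Slc5 genes and -0.02 for the 13 Slc16 genes. The signs of the Slc2 and Slc5 medians depend on the processing: quantile normalization gave -0.12 for Slc5, and scaling to the 75th percentile of the probes bright on both arrays gave 0.01 for Slc2, whereas scaling to the median of those probes gave -0.16. The Slc16 median was 0 or negative under each setting tried. At -0.02 it is the bound of a single gene, Slc16a12, which was dim in VZ/SVZ. A bound of that kind was not allowed above 0, so the sign of this median partly follows from that rule. The Slc16 family had 4 members past 2-fold on each side (30.8% of those measured), Slc2 had 2 (20%) and Slc5 had 1 (11.1%). Over all genes measured, for comparison, 18.7% lay past 2-fold toward VZ/SVZ and 11.1% toward the neurosphere. Of 47 measured amino acid and neurotransmitter transporters, 12 (25.5%) lay past 2-fold toward VZ/SVZ and 7 (14.9%) toward the neurosphere (median 0.22). Of 43 mitochondrial carriers, 4 (9.30%) lay past 2-fold toward VZ/SVZ and 9 (20.9%) toward the neurosphere (median -0.30). None of these differences between sets was tested.

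Markers of other cells also differed between the arrays. Of 11 endothelial markers measured, 10 exceeded 2-fold toward VZ/SVZ (summed signal 134.9 in the neurosphere against 1460), led by Cdh5 at least 72.9-fold higher there. All 7 fibroblast markers did so too (43.7 against 11904), among them Col3a1 at least 526-fold, with Dcn, Lum and Col1a1 also dim in the neurosphere. Another Col3a1 probe gave 0.91, so the size for Col3a1 depends on the probe. Of 6 choroid plexus markers measured, 5 exceeded 2-fold toward VZ/SVZ (144.9 against 1173), with Aqp1 at 6.94 and Otx2 opposing at -1.37. Folr1 and Enpp2 are among the 5, but other probes of theirs gave -0.83 and -0.10. Ttr and Kl, which define that tissue, were dim on both arrays. Of 4 microglial markers measured, 2 lay past 2-fold toward VZ/SVZ (1599 against 1975), among them Tmem119 at 1.91. Most of both sums is Csf1r, at 1568 and 1857 (0.15), and Cx3cr1, P2ry12, C1qa and Tyrobp were dim on both. Of 7 neuron markers measured, 4 lay past 2-fold toward VZ/SVZ and 1 toward the neurosphere, with Nefm at least 77.9-fold higher in VZ/SVZ, Map2 at -3.35 and Rbfox3 dim on both. Of the neural stem and progenitor markers that fit both labels, all 8 were detected on both arrays, 4 past 2-fold toward the neurosphere (Nes, -1.81, Olig2, -1.79, Sox2, -1.28, and Fabp7, -1.08) and Prom1 toward VZ/SVZ (1.03). Ependymal markers lay past 2-fold toward the neurosphere in 3 of 6, among them Foxj1 at -2.04, and astrocyte markers split 3 and 3 of 9, from Slc1a3 at -3.90, with its probes running up to 0.74, to Aldh1l1 at 4.52. Slc2a1 and Slc16a1, known from endothelium among other cells, differed by less than 2-fold. Their neurosphere signals were 460.5 and 679.9, and an endothelial share in their signals was not tested. The part of any of these cells in the differences of Slc2a10, Slc2a6 or Slc16a3 was not tested.

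**Figure D5:**
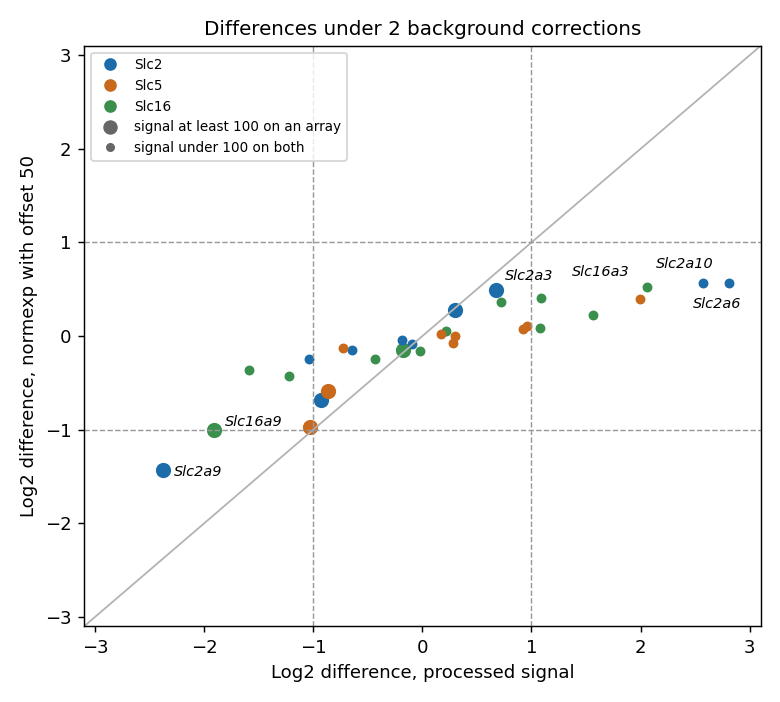
Log2 difference, VZ/SVZ minus neurosphere, of each measured transporter described here from the processed signal (horizontal axis) and after normexp background correction with an offset of 50 (vertical axis), with dashed lines at 2-fold. Slc2a9, at -2.38 and -1.43, is the one plotted past 2-fold on both axes.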

How the data were processed

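The files are Agilent scanner output, 1 array per sample. Per the file headers, the authors' deposited intensity values were extracted with Feature Extraction 11.5.1.1 under protocol GE1_1105_Oct12, which subtracts background, and probe coordinates are mm9; the submitters' processing notes name version 9.1. Each array held 62976 spots, 3671 of them controls, with 0 saturated, and 79 (neurosphere) and 142 (VZ/SVZ) outlier spots were left out. Both arrays share 1 slide and 1 scan time. The deposited value table holds the same linear values, neither centred nor scaled (column medians 12.95 and 18.55; table over scanner value 0.996 to 1.00).

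Log2 processed signals were scaled to each array's 75th percentile and averaged over spots of a probe. A gene takes its brightest probe among those well above background on an array. For a gene dim on 1 array, a bound is taken against the higher of its own level and the lowest level above background. Where such a bound would point the other way, it was set to no difference. Probes were named from RefSeq (GRCm38.p6) by accession (32941), symbol (10214) or synonym (520), with 12867 keeping the file's name and 63 named by the member rule. Promoters are RefSeq's, GRCm38.p6.

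The members and lists were chosen with earlier results of these data known. Named genes are the members past 2-fold or within 0.1 log2 of it, Slc2a1, Slc2a3, Slc16a1, Slc16a3 and members whose probes oppose; other members are given by their values in brief, and each list by counts, median and the up to 3 genes furthest from 0, with genes opposing the median by 2-fold. The values of 1 member counted in the totals are not reported here. Alternatives were normexp (limma 3.58.1, R 4.3.3), other scalings, the value table, outlier spots kept, the median over probes, filters and sizes of 1.5-fold and 3-fold. The scripts were tested on simulated data in which no probe was dim on just 1 array, so the rule for bounds was not exercised.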

Additional observations from a re-analysis of the deposited data

How the results depend on the processing

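All 14 members past 2-fold kept their direction under each of the 9 processing alternatives that measured them. Just 2 of them, Slc2a9 included, stayed past 2-fold in every one. For Slc2a6, Slc5a9, Slc16a10 and Slc16a11, dim in the neurosphere, a bound cannot reverse, so their direction was fixed wherever bounds were kept. The value table and the kept outlier spots reuse nearly the same signals and add little. The count past 2-fold toward VZ/SVZ, 7, became 0 with normexp, 11 at 1.5-fold and 4 at 3-fold. It became 3 with only probes bright on both arrays (14.4% of all genes, and 11.6% toward the neurosphere), which measured 25 members; the 10 of the 14 still measured there all stayed past 2-fold. The count toward the neurosphere, 7, became 2 with normexp, 11 at 1.5-fold and 3 at 3-fold. The share of all genes past 1.5-fold or 3-fold was not counted, so the member counts at those sizes have no background beside them. With probes bright on both arrays only, the median of the members was -0.17 and that of Slc16 -0.30, the latter also -0.30 with no filter on dim probes. The Slc5 median was -0.0011 with normexp and -0.12 with quantile normalization, which gave -0.38 for Slc2. The VZ/SVZ and neurosphere counts were 9 and 5 with scaling to the 75th percentile of probes bright on both arrays (22.2% and 8.70% of all genes), 7 and 7 with scaling to their median (18.3% and 11.4%) and 5 and 8 with quantile normalization (14.8% and 13.7%); normexp gave 5.56% and 4.80%. The 75th percentile of probes bright on both arrays moved the median of all genes to 0.19, and their median to 0.02. No paired analysis was possible because each group has 1 array, and no replicate could be left out. Signals under 20 on both arrays, as in 9 members, lie near background, where a small error in background moves the difference.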
